A study of Homo sapiens with 8 samples.

Results

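NRF2 target genes are the genes of the oxidative stress response that the transcription factor NRF2 (gene symbol NFE2L2) is known to switch on. The 10 described here are HMOX1, NQO1, GCLC, GCLM, TXNRD1, SRXN1, AKR1B10, AKR1C1, AKR1C2 and AKR1C3, taken by symbol from a table of 27946 genes. Where several transcripts carried one symbol, that with the highest mean over the libraries was kept. The study sequenced total RNA, depleted of rRNA, from EA.hy926 cells, an immortalized line made by fusing umbilical vein endothelial cells with a lung carcinoma line. The question was what the loss of single enhancers within an endothelial super-enhancer, SE12313, does to transcription. There were 3 libraries of clonal lines lacking the enhancer E2 (ΔE2) and 3 of clonal lines lacking SE12313-b (ΔSE12313-b), an element of the same super-enhancer that was inactive in the reporter screen of the study. Both deletions were made with guide RNAs in complex with Cas9 protein. The comparison group was 2 libraries of EA.hy926 cells labelled as control, which both deletions share. All cells were kept in the same medium, and the labels name no oxidant or NRF2 activator. The deleted cells are clonal lines, so effects of cloning and effects of the deletions cannot be told apart. Whether the control libraries came from separate cultures is not given in the sources used here, and the p values then measure only the spread between these samples.

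In unstressed cells NRF2 is bound by KEAP1, which presents it to the CUL3 ubiquitin ligase for degradation. When cysteines of KEAP1 are modified by oxidants or electrophiles, NRF2 escapes, pairs with a small MAF protein and binds antioxidant response elements, from which BACH1 is displaced. Its targets make and use glutathione and thioredoxin, reduce quinones and carbonyls, degrade heme and supply NADPH. In endothelial cells the pathway is best known for the protection of the vessel wall by laminar flow and for the induction of heme oxygenase.

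The antioxidant response element was looked for as the letters TGACNNNGC on both strands, from 1000 bases before to 100 bases after the start of the kept transcript (GRCh37). These letters were found for 4 of the 10 genes (5 sites), and in 36.7% of the windows of all 13790 genes tested. The strict form TGACTCAGC, which contains the AP-1 letters TGACTCA, was found in 1.39% of all windows and in 1 of the 10, that of NQO1. Each site is shown with 10 bases on either side, 5′ to 3′ on the strand that carries the motif, which is in capitals, because these are the letters through which NRF2 is known to bind. Positions are those of the first base of the site in the direction of the gene, counted from the transcript start.
NQO1, chr16:69760910-69760918, minus strand, position -385: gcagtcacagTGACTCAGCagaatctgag
TXNRD1, chr12:104609458-104609466, plus strand, position -99: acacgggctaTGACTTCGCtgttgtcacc
TXNRD1, chr12:104609549-104609557, minus strand, position -8: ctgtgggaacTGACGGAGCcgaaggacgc
GCLC, chr6:53410761-53410769, plus strand, position -842: aaatatgtgtTGACAGAGCaatgacctgt
AKR1B10, chr7:134211461-134211469, plus strand, position -883: acagatgctgTGACGTGGCcctggcctgt
For HMOX1, GCLM, SRXN1, AKR1C1, AKR1C2 and AKR1C3 the letters were not in this window. Sites farther from the start were not looked for, so these genes may still have an element elsewhere. Whether NRF2 binds any of the sites shown was not tested. The TXNRD1 sites lie near the start of the kept transcript, chr12:104609557. The other TXNRD1 transcripts listed start at chr12:104680460, where the letters were not looked for. Which start these cells use was not tested. Of the other NRF2 targets described below, 18 of 28 windows (64.3%) held the relaxed form and 4 (14.3%) the strict one.

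The transcripts kept for the 10 genes lie on 8 chromosomes (GRCh37). HMOX1 is at chr22:35777060-35790207 on the plus strand, NQO1 at chr16:69743304-69760533 on the minus strand and TXNRD1 at chr12:104609557-104744085 on the plus strand. GCLC is at chr6:53362140-53409927, GCLM at chr1:94350756-94375154 and SRXN1 at chr20:627268-634014, all on the minus strand. AKR1B10 is at chr7:134212344-134226166, AKR1C1 at chr10:5005454-5020158 and AKR1C3 at chr10:5136568-5149878, all on the plus strand, and AKR1C2 at chr10:5029968-5046206 on the minus strand.

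The values are FPKM, reads scaled to transcript length and library size, so that levels can be compared between genes. Each library held between 12067556 and 19101147 reads. A gene entered the test when 2 or more libraries reached an FPKM of 0.5. The test was limma on log2(FPKM + 0.1), with Benjamini-Hochberg adjustment over all 13790 such genes, and a gene is called when the adjusted p is under 0.05 and the change at least 2-fold. Over all genes tested the median log2 change was 0.14 for ΔE2, 0.27 for ΔSE12313-b and -0.11 for ΔE2 against ΔSE12313-b, and centring the libraries takes this shift out. No row of the table overlaps either deleted element, so the deletions themselves cannot be seen in these values. Of 14 endothelial markers CDH5 was abundant (72.5 to 141 FPKM in ΔE2, 64.3 to 92.8 in ΔSE12313-b, 102 and 103 in the controls) while CLDN5 was listed at 0 in every library.

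In both deletions 5 of the 9 genes tested were called higher than the control, AKR1C3, GCLM, AKR1B10, NQO1 and HMOX1, and 0 were called lower by limma or voom. AKR1B10 and AKR1C1 reached the FPKM of 0.5 needed for the test only in clones, so the filter favoured higher values for them. With a mean FPKM of at least 1 required, which left both out, 4 of 7 were called higher in each deletion and 0 lower. All 9 had a positive log2 change in limma, although that of TXNRD1 turned negative with centred libraries. The median over all genes tested was positive too (0.14 for ΔE2 and 0.27 for ΔSE12313-b), so the sign alone does not set these genes apart. Among all genes tested, 11.2% were called higher and 8.36% lower for ΔE2, 14.7% higher and 7.83% lower for ΔSE12313-b, and 9.14% higher in both. By adjusted p alone, with no limit on the fold, 6 of the 9 were higher in ΔE2 (34.7% of all genes) and 7 of the 9 in ΔSE12313-b (43% of all genes). Their median log2 change was 1.09 for ΔE2 and 1.31 for ΔSE12313-b. Both comparisons share their controls and are not independent of each other. The 10 genes were chosen with earlier results of these data known, so their contrast with all genes is a description. By values alone, all 3 ΔE2 libraries lay above both controls for 8 of the 10 genes (7 of the 9 tested, 44.8% of all genes tested), and all 3 ΔSE12313-b libraries for 9 of the 10 (8 of the 9 tested, 51.6% of all genes tested). Between the deletions limma called 0 of the 9 (4.23% of all genes), as did voom. At an adjusted p under 0.05, with no limit on the fold, 1 of the 9 (HMOX1) differed, where 3590 of all 13790 genes did. The clones of the 2 deletions did not overlap for 5 of the 10 genes, GCLM with ΔE2 above and HMOX1, GCLC, AKR1C2 and AKR1C3 with ΔE2 below (40.8% of all genes tested). By their level in the control the genes ran from TXNRD1 through NQO1, SRXN1, GCLC, HMOX1, GCLM and AKR1C3 to AKR1C1, AKR1B10 and AKR1C2, and of neighbours in this order AKR1C1 with AKR1B10 and AKR1B10 with AKR1C2 overlapped between the control libraries. In the plot of FPKM by library the controls sit apart from the clones for NQO1, HMOX1, GCLM and AKR1C3 and among them for TXNRD1.

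**Figure D1:**
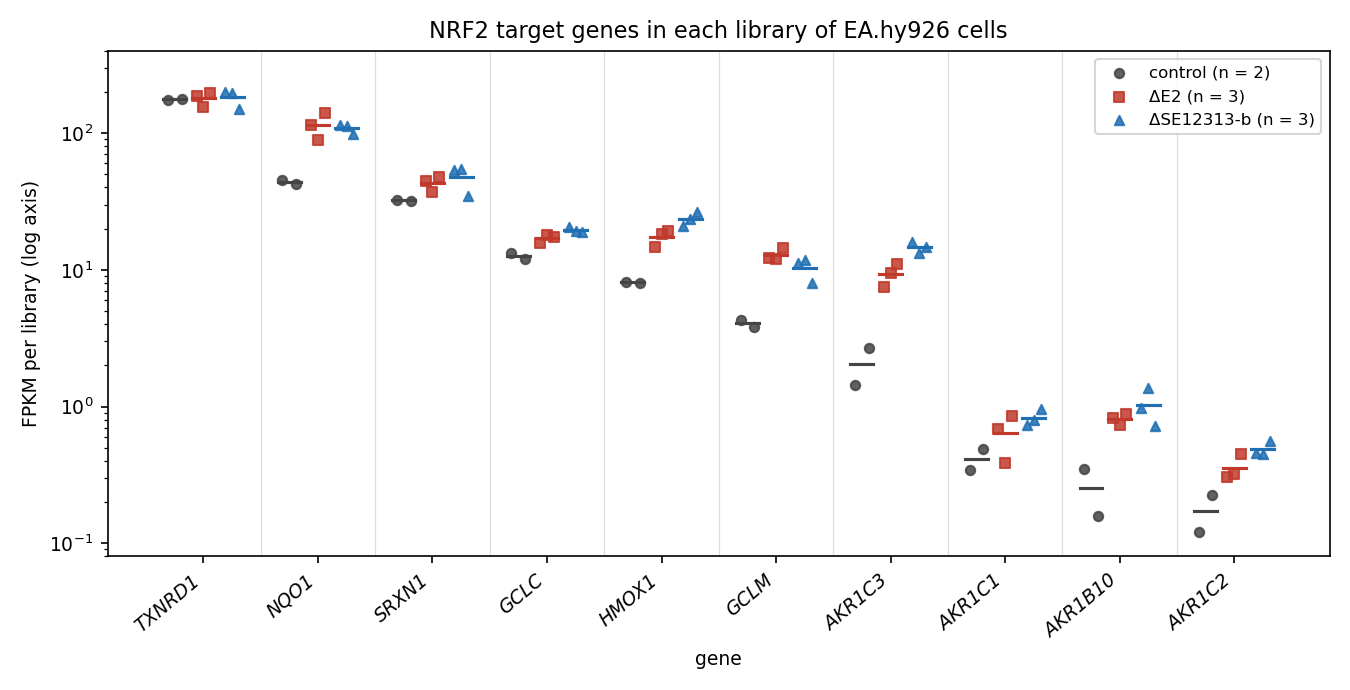
FPKM of the 10 NRF2 target genes in each library (log axis), ordered by their mean in the control; points are single libraries (2 control, 3 ΔE2, 3 ΔSE12313-b) and bars are group means. TXNRD1 was the most abundant in all groups, at 150 to 201 FPKM, with the controls inside the range of the clones, whereas every clone lay above both controls for NQO1, GCLC, HMOX1, GCLM, SRXN1, AKR1C3, AKR1B10 and AKR1C2.

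HMOX1 encodes heme oxygenase 1, which opens the heme ring and releases iron, carbon monoxide and biliverdin. Its FPKM was 8.16 and 8.01 in the controls, 14.7, 18.3 and 19.1 in ΔE2, and 20.9, 23.7 and 26.4 in ΔSE12313-b. The 3 groups did not overlap, and the order was control, ΔE2, ΔSE12313-b. The log2 change was 1.09 ± 0.14 (SE) in ΔE2 (adjusted p = 0.000369 by limma) and 1.53 ± 0.14 in ΔSE12313-b (adjusted p = 4.99e-05). In ΔE2 it fell below 2-fold, at 0.93, when the libraries were centred, with the adjusted p still under 0.05. It was the one NRF2 target of the 9 with an adjusted p under 0.05 between the deletions, lower in ΔE2 by 0.45 ± 0.12 on the log2 scale (95% interval -0.73 to -0.17, adjusted p = 0.0305 by limma). That is under 2-fold, and 19.3% of all genes tested were lower in ΔE2 at that adjusted p. With centred libraries the difference was -0.32 (adjusted p = 0.0883 by limma).

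NQO1, a quinone reductase, was the second most abundant of the 10 genes. The controls held 45.3 and 42.5 FPKM, the ΔE2 clones 114, 89.4 and 140, and the ΔSE12313-b clones 115, 113 and 98.4. Every clone was above both controls, and the deletions overlapped. NQO1 changed by 1.36 ± 0.17 in ΔE2 (adjusted p = 0.000381 by limma) and 1.31 ± 0.17 in ΔSE12313-b (adjusted p = 0.000372). The deletions differed by 0.05 on the log2 scale (95% interval -0.30 to 0.41), so that a 2-fold difference lies outside the interval. With quantile normalization the change in ΔSE12313-b was 0.83 and no longer 2-fold. NQO1 lies on chromosome 16, as do the deleted elements, with its start 7.84 Mb from SE12313-b and 7.87 Mb from E2. The 100 tested genes nearest to it, 50 on either side, had a median change of 0.10 (ΔE2) and -0.035 (ΔSE12313-b). A gene on the opposite strand shares 575 bases of exon with NQO1 in the GENCODE annotation. The strand setting of the counting is not given in the sources used here, so reads of the pair cannot be told apart.

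GCLC and GCLM encode the catalytic and the modifier subunit of glutamate-cysteine ligase, the first and rate-limiting enzyme of glutathione synthesis. GCLM was at 4.30 and 3.81 FPKM in the controls, 12.3, 11.9 and 14.3 in ΔE2, and 11.2, 11.9 and 8.07 in ΔSE12313-b. Its log2 change was 1.64 ± 0.17 in ΔE2 (adjusted p = 0.000145 by limma) and 1.32 ± 0.17 in ΔSE12313-b (adjusted p = 0.000351), and the interval of the difference between the deletions ran from -0.03 to 0.67. GCLC was at 13.3 and 12.1 FPKM in the controls, 15.8, 18.0 and 17.4 in ΔE2, and 20.6, 19.2 and 18.9 in ΔSE12313-b. Every clone was again above both controls, but the step was small, and GCLC was called in neither deletion. Its log2 change was 0.43 ± 0.09 in ΔE2 (adjusted p = 0.00453 by limma) and 0.62 ± 0.09 in ΔSE12313-b (adjusted p = 0.000557). With quantile normalization the value in ΔE2 was 0.16 and its adjusted p 0.141. GCLC shares 305 bases of exon with GCLC-AS1 on the opposite strand, and as for NQO1 reads of the pair cannot be told apart. The mean FPKM of the catalytic subunit exceeded that of the modifier subunit in all 3 groups, 12.7 ± 0.9 against 4.06 ± 0.34 in the control (SD, n = 2), 17.1 ± 1.1 against 12.8 ± 1.3 in ΔE2 and 19.6 ± 0.9 against 10.4 ± 2.0 in ΔSE12313-b (SD, n = 3).

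TXNRD1, thioredoxin reductase of the cytosol, and SRXN1, the sulfiredoxin that repairs overoxidized peroxiredoxins, were called in neither deletion. TXNRD1 was at 174 and 178 FPKM in the controls, 187, 156 and 195 in ΔE2, and 201, 197 and 150 in ΔSE12313-b. The controls lay inside the range of both deletions. Its log2 change was 0.02 in ΔE2 (95% interval -0.32 to 0.35, adjusted p = 0.929 by limma) and 0.04 in ΔSE12313-b (95% interval -0.30 to 0.38, adjusted p = 0.827), so a 2-fold change lies outside both intervals, and its sign turned when the libraries were centred (-0.14 and -0.25) or quantile normalized (-0.40 and -0.49, the latter with an adjusted p of 0.043). The 7 transcripts listed for TXNRD1 gave log2 ratios of group means of 0.02 to 0.03 for ΔE2 and 0.05 to 0.06 for ΔSE12313-b. SRXN1 was at 32.7 and 31.6 FPKM in the controls, 44.3, 37.2 and 47.8 in ΔE2, and 53.4, 54.2 and 34.7 in ΔSE12313-b, each clone above both controls. SRXN1 changed by 0.42 ± 0.20 in ΔE2 (adjusted p = 0.109 by limma) and 0.53 ± 0.20 in ΔSE12313-b (adjusted p = 0.0470). The latter passed in 7 of 20 alternatives. Its adjusted p by limma was 0.141 or 0.172 without control replicate 1 or 2, 0.068 or 0.059 without ΔE2 replicate 1 or 3, and 0.129 or 0.123 without ΔSE12313-b replicate 1 or 2. In the GENCODE annotation 90.5% of the 75-base stretches of SRXN1 also belong to an overlapping gene on the same strand, so its reads are not certain to be its own.

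TXNRD1 held 62.2% to 63.7% of the summed FPKM of the 10 genes in the controls, 43.6% to 47.0% in ΔE2 and 42.5% to 45.7% in ΔSE12313-b. NQO1 held 15.2% to 16.1% in the controls, 26.1% to 31.4% in ΔE2 and 26.0% to 27.8% in ΔSE12313-b. The sum itself was 280 FPKM in both controls, 342 to 447 in ΔE2 and 354 to 440 in ΔSE12313-b.

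**Figure D2:**
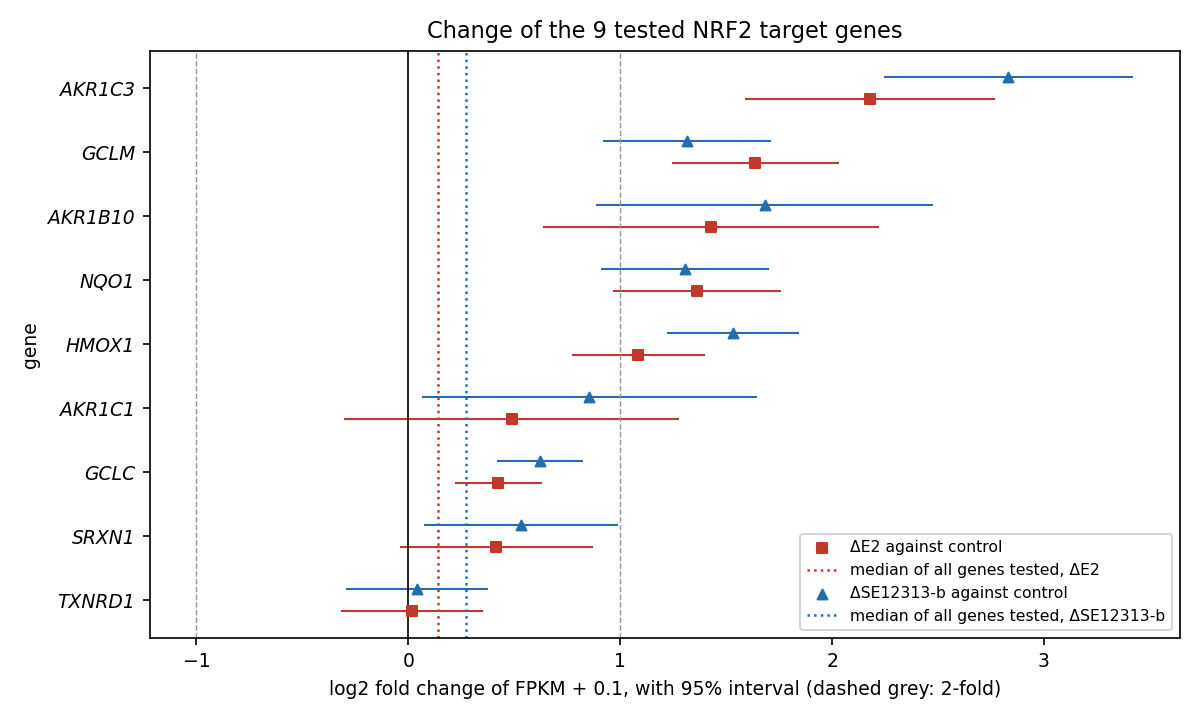
Log2 fold change of FPKM + 0.1 for the 9 NRF2 target genes tested, against the control, in ΔE2 (squares) and ΔSE12313-b (triangles), with 95% intervals from limma; dotted lines are the medians of all genes tested and dashed grey lines mark 2-fold. AKR1C3 lies farthest right (2.18 and 2.83) and TXNRD1 at 0.02 and 0.04.

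The aldo-keto reductases AKR1B10, AKR1C1, AKR1C2 and AKR1C3 reduce aldehydes, ketones and steroids. AKR1C3 changed most of the 9 genes tested. It was at 1.43 and 2.66 FPKM in the controls, 7.42, 9.53 and 11.0 in ΔE2, and 15.8, 13.2 and 14.6 in ΔSE12313-b. The 3 groups did not overlap, and the lowest clone was well above the higher control. AKR1C3 changed by 2.18 ± 0.25 in ΔE2 (adjusted p = 0.000258 by limma) and 2.83 ± 0.25 in ΔSE12313-b (adjusted p = 5.36e-05). Between the deletions it was -0.65 ± 0.23 (adjusted p = 0.0703 by limma). The interval of that difference ran from -1.18 to -0.13, and the 62 tested genes nearest to AKR1C3 had a median of -0.60 in the same comparison. The part of that regional shift in the difference was not tested.

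AKR1B10 was called on few reads. Its FPKM was 0.348 and 0.157 in the controls, from 7 and 3 reads, 0.826, 0.737 and 0.881 in ΔE2, and 0.981, 1.36 and 0.715 in ΔSE12313-b. All clones were above both controls. The summed reads, scaled to library size, gave a ratio of 3.18 in ΔE2 (exact 95% interval 1.62 to 6.95) and 3.97 in ΔSE12313-b (2.04 to 8.61), intervals that cover counting error only. On the log2 scale the change was 1.43 ± 0.34 in ΔE2 (adjusted p = 0.00899 by limma) and 1.68 ± 0.34 in ΔSE12313-b (adjusted p = 0.00359). With a pseudocount of 1 these were 0.54 and 0.68 and not called, and without control replicate 2 the value in ΔE2 was 1.03 with an adjusted p of 0.0681.

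AKR1C1 was at 0.345 and 0.485 FPKM in the controls, 0.689, 0.384 and 0.859 in ΔE2, and 0.727, 0.790 and 0.966 in ΔSE12313-b. One ΔE2 clone lay between the controls, and the ΔSE12313-b clones were above them. AKR1C1 changed by 0.49 ± 0.34 in ΔE2 (adjusted p = 0.260 by limma) and 0.85 ± 0.34 in ΔSE12313-b (adjusted p = 0.0608). AKR1C2 did not reach the level needed for the test, with 0.120 and 0.227 FPKM in the controls, 0.303, 0.320 and 0.447 in ΔE2, and 0.454, 0.452 and 0.556 in ΔSE12313-b. Its reads gave a ratio of 2.02 in ΔE2 (exact 95% interval 1.11 to 3.93) and 2.84 in ΔSE12313-b (1.59 to 5.43), again for counting error only.

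The AKR1C genes are related copies on chromosome 10 that share part of their sequence. Of their 75-base stretches, 15.7% in AKR1C1, 32.7% in AKR1C2 and 9.2% in AKR1C3 also occur in other genes, and the alignment allowed a read to map to several loci, so the split of reads among them is uncertain. The largest overlap was that of AKR1C2 with AKR1C1 (31.0%). Summed over AKR1C1 to AKR1C4 the log2 change was 1.97 ± 0.26 in ΔE2 (adjusted p = 0.00044 by limma) and 2.59 ± 0.26 in ΔSE12313-b (adjusted p = 8.81e-05). AKR1C3 held 74.3% to 75.4% of the summed FPKM of AKR1C1 to AKR1C4 in the controls, 85.1% to 90.1% in ΔE2 and 88.5% to 90.4% in ΔSE12313-b. The 62 tested genes nearest to them, up to 50 on either side, had a median change of 0.22 (ΔE2) and 0.88 (ΔSE12313-b), where the median of all genes was 0.27. This regional shift lies in the direction of the AKR1C values in ΔSE12313-b, and its part in them was not tested. For the other NRF2 targets the nearest genes had medians between -0.011 and 0.32 for ΔE2 and between -0.035 and 0.41 for ΔSE12313-b.

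Of the other aldo-keto reductases, 5 of 8 were tested. AKR1B1, the aldose reductase, was at 40.8 and 43.6 FPKM in the controls, 76.9, 109 and 109 in ΔE2, and 105, 105 and 114 in ΔSE12313-b, 2.29-fold and 2.56-fold higher (adjusted p = 0.000365 and 0.000151 by limma). With quantile normalization neither reached 2-fold (0.84 and 0.86 on the log2 scale). AKR7A2 was called higher in both deletions, by 1.11 and 1.60, although in ΔE2 it was under 2-fold with centred libraries (0.96), quantile normalization (0.91) and voom (0.95). AKR7A3 was called in ΔSE12313-b, by 1.44 (0.96 in ΔE2). Without control replicate 1 AKR7A3 was at 0.66 and no longer called. AKR1A1 was not called (0.52 and 0.82), nor was AKR1E2 (-0.22 and -0.01).

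The regulators of the pathway were next. NFE2L2 itself was at 21.8 and 22.8 FPKM in the controls, 24.2, 25.0 and 27.5 in ΔE2, and 25.1, 25.8 and 23.4 in ΔSE12313-b. All clones were above both controls, but by little. NFE2L2 changed by 0.19 ± 0.08 in ΔE2 (adjusted p = 0.0778 by limma) and 0.15 ± 0.08 in ΔSE12313-b (adjusted p = 0.149), with the sign turned in ΔSE12313-b by centring (-0.14) and in both by quantile normalization (-0.10 and -0.27). NRF2 is controlled mainly as a protein, which these data do not measure. KEAP1, its inhibitor, was at 25.0 and 24.3 FPKM in the controls, 35.2, 33.8 and 37.2 in ΔE2, and 33.1, 31.6 and 33.1 in ΔSE12313-b. Its log2 change was 0.52 ± 0.07 in ΔE2 (adjusted p = 0.000488 by limma) and 0.40 ± 0.07 in ΔSE12313-b (adjusted p = 0.00149), under 2-fold, and -0.055 in ΔSE12313-b with quantile normalization.

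Of the small MAF genes, whose products pair with NRF2, MAFK was at 14.4 and 13.7 FPKM in the controls, 6.95, 7.63 and 7.27 in ΔE2, and 7.66, 7.57 and 6.79 in ΔSE12313-b. Its log2 changes of -0.93 and -0.92 were just under 2-fold (adjusted p = 9.32e-05 and 7.57e-05 by limma), and with centred libraries they were -1.09 and -1.21. MAFF was called lower in ΔSE12313-b (-1.02, adjusted p = 0.00376 by limma) and was at -0.68 in ΔE2. It stayed just under 2-fold without control replicate 1 (-0.93) or ΔSE12313-b replicate 1 (-0.98) or 2 (-0.85). MAFG was at -0.22 and 0.086. BACH1, the repressor that occupies the same elements, was at 29.3 and 29.6 FPKM in the controls, 23.7, 21.5 and 23.9 in ΔE2, and 22.4, 23.2 and 20.9 in ΔSE12313-b, a log2 change of -0.35 and -0.41 (adjusted p = 0.00612 and 0.00256 by limma).

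In all, of the 17 regulators tested, 2 were called higher and 0 lower in ΔE2, and 4 higher and 1 lower in ΔSE12313-b. Over all genes tested the shares were 11.2% higher and 8.36% lower for ΔE2, and 14.7% and 7.83% for ΔSE12313-b. Called in both were NFE2L3 (1.15 and 1.13), a relative of NRF2, and DPP3 (1.23 and 1.12), a peptidase that binds KEAP1. NFE2L3 was under 2-fold with centred libraries (0.99 and 0.84), quantile normalization (0.89 and 0.75) and voom (0.99 and 0.83). So was DPP3 in ΔSE12313-b (0.83, 0.76 and 0.82), and in ΔE2 with quantile normalization (0.99). In ΔSE12313-b RBX1 (1.07), the ring subunit of the CUL3 ligase, and TRIM16 (1.12) were called as well, RBX1 not without ΔSE12313-b replicate 3 (0.98) and TRIM16 not without control replicate 2 (0.99). With centred libraries 1 was called higher and 1 lower in ΔE2, and 0 higher and 3 lower in ΔSE12313-b, so the balance of the regulators depends on the scaling. Of all 13790 genes, 2634 were then called for ΔE2, 1170 of them higher, and 2771 for ΔSE12313-b, 1201 of them higher. SQSTM1, the autophagy receptor that also binds KEAP1, was at 102 and 108 FPKM in the controls, 75.5, 81.2 and 79.6 in ΔE2, and 129, 124 and 120 in ΔSE12313-b. It lay below the controls in the first and above them in the second, although the latter change of 0.24 was -0.034 relative to the median of all genes. The difference between the deletions was -0.66 ± 0.06 (adjusted p = 0.000684 by limma).

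**Figure D3:**
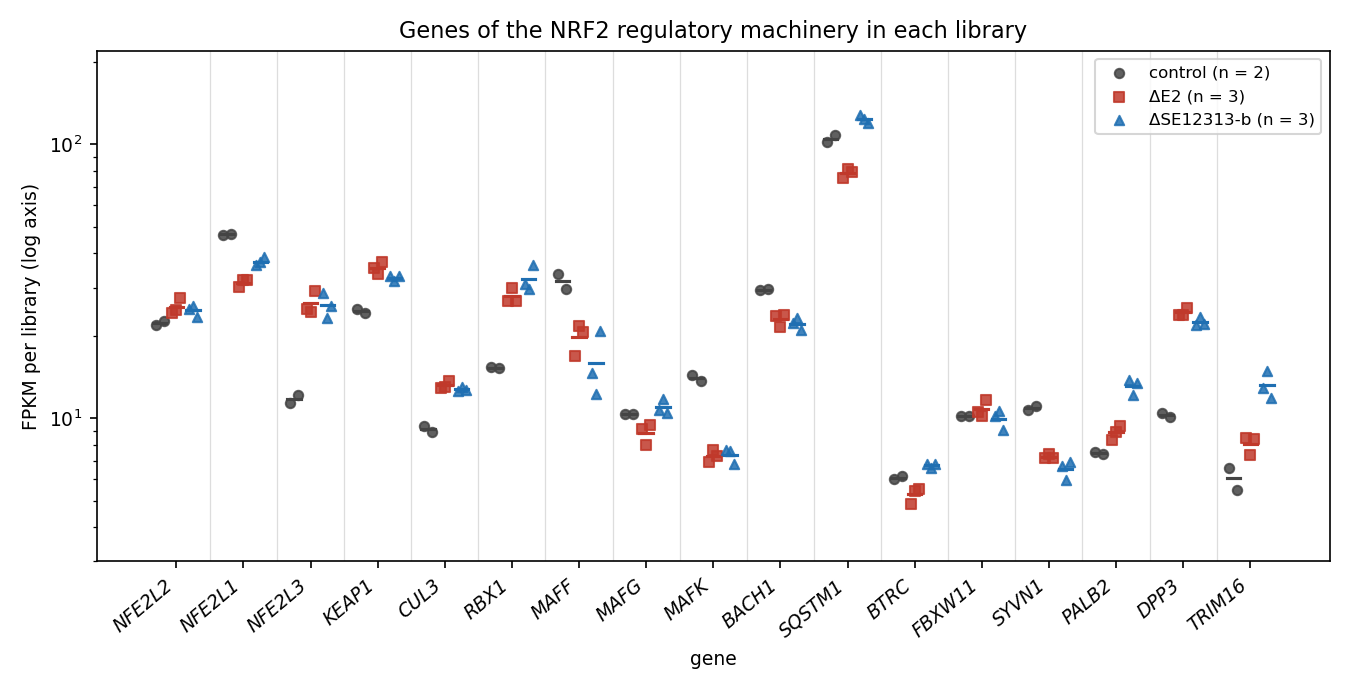
FPKM of 17 genes of the NRF2 regulatory machinery in each library (log axis), with group means as bars (2 control, 3 ΔE2 and 3 ΔSE12313-b libraries). MAFK and BACH1 lay below both controls in all 6 clones, DPP3, NFE2L3 and KEAP1 above them, and NFE2L2 only slightly above (23.4 to 27.5 against 21.8 and 22.8).

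A wider list of 35 further NRF2 targets was counted, of which 28 were tested. It too was chosen with earlier results of these data known. In ΔE2 8 were called higher and 2 lower, and in ΔSE12313-b 10 higher and 2 lower. Of these, 6 were higher in both and 2 lower in both. Beside these stand the same shares of all genes, 11.2% and 8.36% for ΔE2, 14.7% and 7.83% for ΔSE12313-b, and 9.14% higher in both. Their median change was 0.53 (ΔE2) and 0.75 (ΔSE12313-b), and with centred libraries it was 0.37 and 0.47, with 6 and 6 called higher and 2 and 2 lower, beside 1170 and 1201 of all 13790 genes called higher. The 7 not tested, GPX2, GSTM3, GSTA1, CES1, ALDH3A1, NR0B1 and UGT1A6, did not pass 0.327 FPKM in any library.

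CBR3, a carbonyl reductase, moved most of the 28. In the controls it was at 0.712 and 0.374 FPKM, from only 10 and 5 reads. It was at 8.94, 5.12 and 8.16 in ΔE2, and 9.44, 10.1 and 8.81 in ΔSE12313-b. Its log2 change of 3.56 ± 0.28 and 3.94 ± 0.28 was above that of any of the 9 genes tested (adjusted p = 3.72e-05 and 1.75e-05 by limma). CBR1, its neighbour in the genome, changed by 1.17 and 1.29. With quantile normalization CBR1 was under 2-fold in both deletions (0.91 and 0.90), and with voom in ΔSE12313-b (0.99). EPHX1, an epoxide hydrolase, rose from 2.87 and 2.92 FPKM to between 8.91 and 10.9 in the clones, by 1.70 and 1.81.

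Of the thioredoxin system, the peroxiredoxin PRDX1 was at 144 and 149 FPKM in the controls, 420, 410 and 488 in ΔE2, and 472, 453 and 414 in ΔSE12313-b, a log2 change of 1.58 and 1.60 (adjusted p = 1.05e-05 and 8.07e-06 by limma). TXN, thioredoxin, rose from 77.6 and 76.1 FPKM to between 150 and 191, by 1.16 and 1.24. TXNRD1, which reduces it, is the gene given above at 0.02 and 0.04. With centred libraries TXN was at 0.999 and 0.95, just under 2-fold. PIR, pirin, was also called higher in both deletions (1.74 and 1.56).

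Called in ΔE2 only were OSGIN1 (1.25, against 0.79) and UGDH (1.00, against 0.65). In ΔSE12313-b only, BLVRB, biliverdin reductase B (1.26, against 0.69), and TRIM16L (1.31, against 0.64) were called. So were the pentose phosphate enzymes TALDO1 (1.04, against 0.94) and TKT (1.01, against 0.46). BLVRA, biliverdin reductase A, overlapped the controls in both deletions (10.9 and 11.0 FPKM in the controls, 9.33 to 13.9 in the clones). Tested against each other, the deletions had an adjusted p under 0.05 by limma for BLVRB (-0.57), TRIM16L (-0.67), TKT (-0.55) and UGDH (0.35) and not for OSGIN1 (0.46) or TALDO1 (-0.10). Several of these calls against the control rested on a change close to 2-fold. With centred libraries the change of BLVRB (0.97), TALDO1 (0.76) and TKT (0.72) in ΔSE12313-b and that of UGDH (0.85) in ΔE2 was under 2-fold. UGDH was also under it without control replicate 1 (0.97) or ΔE2 replicate 1 (0.98) or 3 (0.92) and with the replicate block (0.98). The same held for TKT without ΔSE12313-b replicate 1 (0.93) or 3 (0.997) and with the block (0.99), and for TALDO1 without ΔSE12313-b replicate 1 (0.997). MGST1, a microsomal glutathione transferase, was the single gene of the list called between the deletions. It was at 67.7 and 69.9 FPKM in the controls, 50.2, 42.4 and 55.4 in ΔE2, and 126, 135 and 96.6 in ΔSE12313-b, a difference of -1.27 ± 0.14 (adjusted p = 0.00121 by limma, where 2.63% of all genes tested were called lower in ΔE2).

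The 2 targets called lower were both membrane transporters. SLC7A11, the cystine importer that feeds glutathione synthesis, was at 36.2 and 37.7 FPKM in the controls, 16.2, 12.5 and 18.2 in ΔE2, and 11.6, 16.4 and 7.66 in ΔSE12313-b. Its log2 change was -1.25 ± 0.29 and -1.69 ± 0.29 (adjusted p = 0.00736 and 0.00144 by limma). ABCC3, an exporter of conjugated compounds, was at 1.96 and 2.05 FPKM in the controls and between 0.109 and 0.257 in the clones. Its log2 change was -2.78 and -2.91, with 9 to 22 reads per clone. Both transporters were called lower with centring, quantile normalization and voom. With a mean FPKM of at least 1 required, ABCC3 was not tested. Without control replicate 2 SLC7A11 was at -1.23 in ΔE2 with an adjusted p of 0.0514 by limma. Among the genes of glutathione supply, GCLM was thus called higher, GCLC changed by less than 2-fold and SLC7A11 was called lower.

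**Figure D4:**
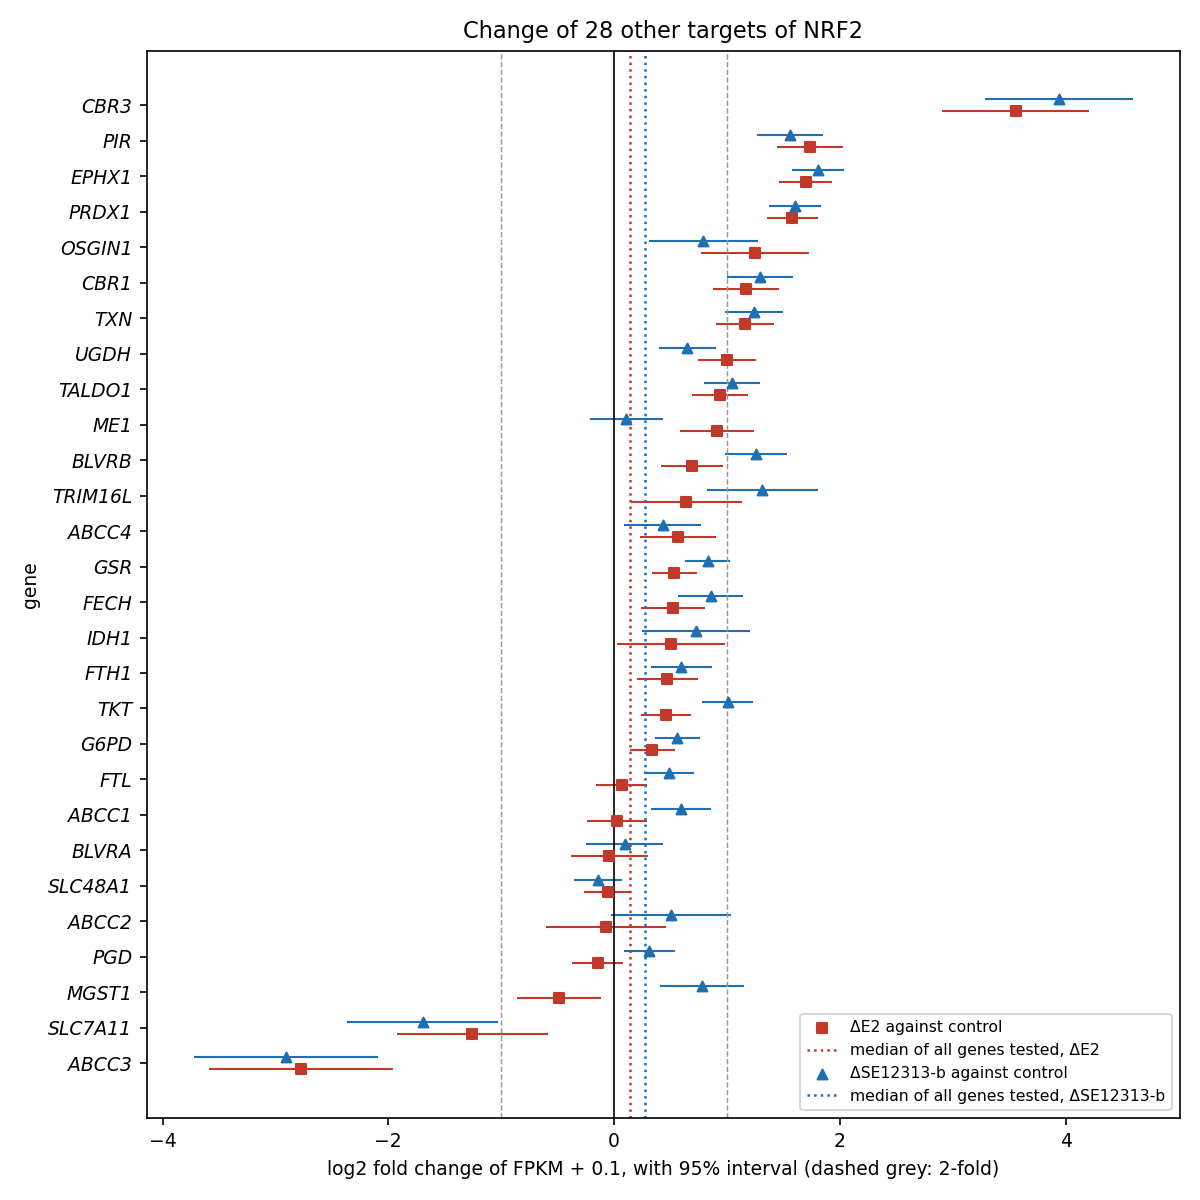
Log2 fold change of FPKM + 0.1 for the 28 other NRF2 targets tested, against the control, in ΔE2 (squares) and ΔSE12313-b (triangles), with 95% intervals from limma; dotted lines are the medians of all genes tested and dashed grey lines mark 2-fold. CBR3 stands at 3.56 and 3.94, SLC7A11 and ABCC3 lie below -1 in both deletions, and MGST1 lies on opposite sides of 0.

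For each called NRF2 target the genes with the nearest profile over the 8 libraries were sought outside the 10 genes, which therefore could not appear. The genes named below are not on the other NRF2 lists either, which hold few of the 13790 genes tested. Likeness was measured as the root mean square distance between centred log2 profiles, and the values are a description. The 2 nearest to NQO1 were TNS1 (0.07) and LANCL2 (0.08), to HMOX1 SIRT2 (0.11) and BTBD6 (0.11), to GCLM CROT (0.10) and TGFBI (0.11), to AKR1C3 PEG10 (0.22) and SNRNP25 (0.23), and to AKR1B10 ERCC6 (0.20) and CLCN5 (0.20). Among the called NRF2 targets themselves, the closest pair was NQO1 and GCLM (0.19).

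Keratins moved in the same libraries. Of 11 epithelial markers 4 were tested, and KRT7, KRT8 and KRT18 were called higher in both deletions, while MUC1 was not called (-0.053 and -0.17). Of the 7 not tested, CDH1 and NKX2-1 were listed at 0 in every library, and EPCAM and CLDN4, both under 0.6 FPKM, were below the controls in all clones. The summed FPKM of the list, nearly all of it from the 3 keratins, was 363 to 365 in the controls, 1087 to 1212 in ΔE2 and 813 to 1071 in ΔSE12313-b. That of the 14 endothelial markers was 695 to 696 in the controls, 712 to 1071 in ΔE2 and 696 to 993 in ΔSE12313-b, with VWF and THBD called lower and PECAM1 and ERG higher in both, and ESAM higher in ΔE2. RNA from whole cultures does not tell a change in all cells of a clone from a change in some of them. The part of these shifts in the values of the NRF2 targets was not tested.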

How the data were processed

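RNA of 8 EA.hy926 libraries was analysed (2 control, 3 ΔE2, 3 ΔSE12313-b), grouped by the GEO titles. The authors trimmed reads with Trim Galore 0.4.4, aligned them to GRCh37/hg19 with STAR 2.5.4b and counted them with featureCounts, per the study and its processing notes. Which tool and strand setting gave the FPKM is not given in the sources used here. The authors deposited FPKM and the transcript length for 65572 RefSeq transcripts. FPKM times length fell on whole multiples of 1 step within 0.1 read, which gave the reads per library.

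One transcript per symbol was kept. limma 3.58.1 (R 4.3.3, trend, 3 groups, two-sided) was run on log2(FPKM + 0.1), a scale that understates changes of low genes, and was tested on simulated data. The count test of the study was not used, since FPKM were deposited. The members and lists were chosen with earlier results of these data known. Named were the members, NFE2L2, KEAP1, the small MAF genes, BACH1, the called genes of the lists (up to 6 targets in each direction per deletion) and the 2 nearest profiles. TXN, UGDH, BLVRB, BLVRA, TALDO1, TKT, SQSTM1 and MGST1 were chosen after their values were seen. Read ratios have exact binomial intervals (scipy 1.17.1). Alternatives were 2 pseudocounts, 2 filters, 2 scalings, voom on the recovered reads, a replicate block, no trend, each library left out, only the groups compared, 2 other choices of transcripts, summed AKR1C genes and 2 other thresholds.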

Additional observations from a re-analysis of the deposited data

Results flagged for a closer look

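HMOX1 was flagged because its level differed between the 2 deletions by a test of the difference itself. At the same limit of adjusted p under 0.05, 3590 of all 13790 genes tested differed, so such a difference is not particular to HMOX1. HMOX1 was lower in ΔE2 than in ΔSE12313-b by 0.45 on the log2 scale (-0.45 as ΔE2 minus ΔSE12313-b, adjusted p = 0.0305 by limma). Each ΔE2 clone was below each ΔSE12313-b clone, and the clones of the 2 deletions did not overlap for 40.8% of all genes tested. The adjusted p of HMOX1 was under 0.05 in 10 of 20 alternatives and ranged from 0.0252 to 0.0888. Among the libraries left out in turn, it was above 0.05 without control replicate 1 (0.0578) or 2 (0.058), ΔE2 replicate 1 (0.076), or ΔSE12313-b replicate 2 (0.0712) or 3 (0.0797).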

How the results depend on the processing

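The count of NRF2 targets called stayed at 4 or 5 of those tested for ΔE2 and at 4 to 6 for ΔSE12313-b, and at 0 between the deletions, over all alternatives run. AKR1C3 and GCLM were called higher in both deletions in each of them that tested the single genes. With the replicate number as a block the counts were 5, 5 and 0. The numbers did not pair the samples, since same-numbered ΔE2 and ΔSE12313-b clones deviated together with r of 0.11, -0.08 and -0.07. HMOX1 in ΔE2 fell below 2-fold with centred libraries (0.93), quantile normalization (0.87) and voom (0.92), and AKR1C1 was called in ΔSE12313-b with quantile normalization (1.14). AKR1C2, tested when no filter was set, was at 0.75 in ΔE2 and 1.13 in ΔSE12313-b (adjusted p = 0.0469 and 0.0086 by limma). AKR1C3 passed an adjusted p of 0.05 between the deletions in 5 of 20 alternatives. Among the 9 genes, signs turned for TXNRD1 and, between the deletions, for NQO1 and SRXN1. TXNRD1 in ΔE2 was at -0.14 with centred libraries, -0.40 with quantile normalization and -0.15 with voom, and in ΔSE12313-b at -0.25, -0.49 and -0.26. Its difference between the deletions was then 0.11, 0.10 and 0.11, and that of SRXN1 0.014, 0.032 and 0.019. Leaving out 1 library gave TXNRD1 values from -0.047 to 0.11 for ΔE2, -0.034 to 0.17 for ΔSE12313-b and -0.16 to 0.074 between them, and NQO1 between them from -0.10 to 0.22. Centring changes the balance of all calls, since 1544 of 2697 genes called for ΔE2 were higher and 1170 of 2634 with centred libraries, and 2032 of 3112 against 1201 of 2771 in ΔSE12313-b. With quantile normalization 1309 of 2694 and 1400 of 2798 were higher, and with voom 1134 of 2728 and 1171 of 2872. Between the deletions 583 genes were called. A pseudocount of 1 left 1718, 2004 and 240 genes called in the 3 comparisons, a 1.5-fold threshold gave 5054, 5802 and 1631, and an adjusted p under 0.01 left 383 between the deletions. Counting error limits AKR1B10, AKR1C1 and AKR1C2, which rest on 3 to 32 reads per library.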
